A study of Mus musculus with 8 samples.

Results

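Chromatin accessibility was described at 40 granulocyte genes, 33 of neutrophils and 7 of eosinophils, in AML246, a line of mouse acute myeloid leukaemia cells cultured with IL-3. The genes encode granule proteins, secreted and surface proteins of mature granulocytes, and the repressor Gfi1. A region was a stretch of overlapping windows of 150 bp to each side of ATAC-seq peak summits, pooled over 8 libraries, and it belonged to a granulocyte gene when that gene was the nearest protein-coding gene within 100 kb. This gave 128 regions among 68800 in all, of which 64638 had a protein-coding gene within that distance. The neutrophil genes held 117 regions and the eosinophil genes 11.

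In these cells PU.1, the transcription factor encoded by Spi1, is under the control of doxycycline (Dox). Per the labels, 0.1 µg/mL Dox given from day 0 restored PU.1, and its withdrawal at day 12 returned the cells to knockdown. The groups were untreated cells at day 0, cells after 4, 8 and 12 days on Dox, CD11b-high viable cells sorted at day 12, and cells 4, 8 and 12 days off Dox, all but the sorted group being total viable cells. All groups were the same line, and the labels name neither the alleles nor the construct behind the PU.1 switch. Each library was made from 50000 sorted cells, and the labels' extraction text also speaks of ChIP. Each group had 1 library, so no test between conditions was possible and every value below describes these libraries.

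Neutrophils fill their granules in a fixed order as they mature. Azurophil granules, made first, carry myeloperoxidase and serine proteases, specific granules carry lactoferrin and cathelicidin, and gelatinase granules come last. PU.1, C/EBP factors and Gfi1 are known regulators of this programme. Eosinophils carry a separate set of basic granule proteins and the receptor for IL-5.

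"Open" means that the authors' peak list of a library held a summit in the region, and "not open" means only that none was called. The lists held between 31957 and 51175 summits, the longest at 4 days off and the shortest at 12 days off, with their read depth unknown. The score printed with a call is the deposited −log10 of a p or q value, the highest in the region. It moves with depth and is given as a description of that list, whose median lay between 9.41 and 12.6. A summit shared by all cells and a stronger summit in some of them cannot be told apart in bulk libraries. Intervals are exact Clopper-Pearson 95% intervals and cover counting error only, and neighbouring regions and neighbouring genes (Prtn3 with Elane, S100a8 with S100a9, Fpr1 with Fpr2, Cxcr1 with Cxcr2, Prg2 with Prg3, and the Ly6 genes) are not independent. Genes with close copies, such as Ly6c1 and Ly6c2 or Ear1 and Ear2, have uncertain calls because no source used here tells how reads with several positions were treated.

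The promoter sequences of 37 of the 40 genes were taken from RefSeq (GRCm38.p6). Mmp9, Serpinb1a and Prg2 had no entry. The 250 bases before the start are shown for the genes on which the promoter results turn. They are Mmp8 (the only start gained on Dox), S100a8 and S100a9 (called in every library except that of 12 days off), Camp (called in all 8), Elane (never called) and the eosinophil gene Prg3 (called in 3 libraries). Capitals mark matches on either strand. The letters searched were GAGGAAGT for PU.1 and, for the C/EBP factors, TTGCNNAA. For RUNX factors they were TGTGGTT, for the MYB family TAACNG and for GATA factors AGATAA.
Mmp8, chr9:7558179-7558428, plus strand: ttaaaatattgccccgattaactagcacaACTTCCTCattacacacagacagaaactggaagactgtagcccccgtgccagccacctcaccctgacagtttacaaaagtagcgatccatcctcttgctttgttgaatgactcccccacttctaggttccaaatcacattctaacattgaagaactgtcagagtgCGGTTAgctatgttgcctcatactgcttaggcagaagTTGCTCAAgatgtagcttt
S100a8, chr3:90668821-90669070, plus strand: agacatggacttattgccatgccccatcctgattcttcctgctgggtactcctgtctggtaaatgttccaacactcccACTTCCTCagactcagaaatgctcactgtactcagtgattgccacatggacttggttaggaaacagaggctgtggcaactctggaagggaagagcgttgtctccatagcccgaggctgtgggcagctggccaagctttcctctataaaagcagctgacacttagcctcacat
S100a9, chr3:90695722-90695971, minus strand: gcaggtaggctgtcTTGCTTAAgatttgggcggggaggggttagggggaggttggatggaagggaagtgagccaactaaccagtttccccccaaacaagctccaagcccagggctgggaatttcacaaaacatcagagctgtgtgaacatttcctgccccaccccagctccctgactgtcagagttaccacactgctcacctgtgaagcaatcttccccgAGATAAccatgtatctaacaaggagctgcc
Camp, chr9:109849457-109849706, minus strand: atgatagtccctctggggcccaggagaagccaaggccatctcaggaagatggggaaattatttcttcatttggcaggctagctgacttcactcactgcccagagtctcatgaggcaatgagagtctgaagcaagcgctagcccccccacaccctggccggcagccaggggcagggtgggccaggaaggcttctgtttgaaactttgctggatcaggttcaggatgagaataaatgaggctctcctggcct
Elane, chr10:79886062-79886311, plus strand: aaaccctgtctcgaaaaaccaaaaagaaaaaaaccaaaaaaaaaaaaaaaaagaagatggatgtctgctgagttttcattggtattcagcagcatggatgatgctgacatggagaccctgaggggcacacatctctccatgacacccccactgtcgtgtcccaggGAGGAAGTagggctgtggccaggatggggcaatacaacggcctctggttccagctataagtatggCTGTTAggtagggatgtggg
Prg3, chr2:84987965-84988214, plus strand: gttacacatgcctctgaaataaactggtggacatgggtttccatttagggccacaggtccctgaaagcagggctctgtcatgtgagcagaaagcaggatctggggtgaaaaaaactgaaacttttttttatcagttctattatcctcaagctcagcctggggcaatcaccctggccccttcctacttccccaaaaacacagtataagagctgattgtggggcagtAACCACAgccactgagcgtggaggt
No 2 matches overlapped in these windows, and Camp held none.

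The letters GAGGAAGT were present before the start of 10 of the 31 neutrophil genes with a promoter entry, or 32.3% (16.7 to 51.4), beside 2.57% of the 17492 protein-coding genes in the table. The 10 genes were Mpo, Elane, Prtn3, Mmp8, Olfm4, S100a8, Itgb2l, Ly6g, Ly6c1 and Ly6c2. The 3 Ly6 genes are related copies, which the share counts separately. TTGCNNAA was present in 10 of 31 neutrophil genes (32.3%) beside 10.5% of all, TGTGGTT in 12.9% beside 4.5%, TAACNG in 22.6% beside 20.2% and AGATAA in 16.1% beside 10.3%. Mmp8 held 3 of the 5 kinds, with the PU.1 letters beginning 221 bases before the start and the C/EBP letters 19 bases before it. In S100a8 the PU.1 letters began 172 bases before the start and in Elane 85 bases before it. None of the 6 eosinophil promoters held GAGGAAGT. A match is a description of the letters and no binding was measured here.

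Starts with the PU.1 letters were found at both ends of the range of openness. Of the 10 genes with GAGGAAGT, the start of Olfm4 and Ly6c2 was open in all 8 libraries and that of Mmp8 and S100a8 in 7. The starts of Mpo, Elane, Prtn3, Itgb2l, Ly6g and Ly6c1 were open in 0. A start was called open when a summit lay within 150 bp of the window from 250 bases before to 50 bases after it.

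The share of neutrophil starts that were open was not distinguishable from that of all starts, which lay inside its interval in each of the 8 libraries. Of the 31 neutrophil starts, 11 (35.5%, 19.2 to 54.6) were open at day 0, beside 46.4% of all 17492 genes. At day 4, 8 and 12 on Dox 11, 13 and 11 were open, beside 45%, 46.5% and 44.4%. In CD11b-high cells 13 were open, beside 44.8%. At 4, 8 and 12 days off 15, 12 and 9 were open, beside 47.1%, 46.7% and 45.2%. Starts open in all 8 libraries were those of Camp (cathelicidin), Ly6c2, Lyz2 (lysozyme), Olfm4 (olfactomedin 4), Slpi (a leukocyte protease inhibitor) and Srgn (serglycin, the proteoglycan that packs granule proteins). That made 6 of 31, or 19.4% (7.45 to 37.5), beside 37.8% of all genes. Unlike the shares of single libraries, this share of all genes lay outside the interval, just above it. In any library 17 were open (54.8%), beside 52%. No start of Mpo, Elane, Prtn3, Ltf, Chil3, Mmp25, Retnlg, Fpr1, Fpr2, Cxcr1, Cxcr2, Itgb2l, Ly6g or Ly6c1 was called in any library.

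**Figure D1:**
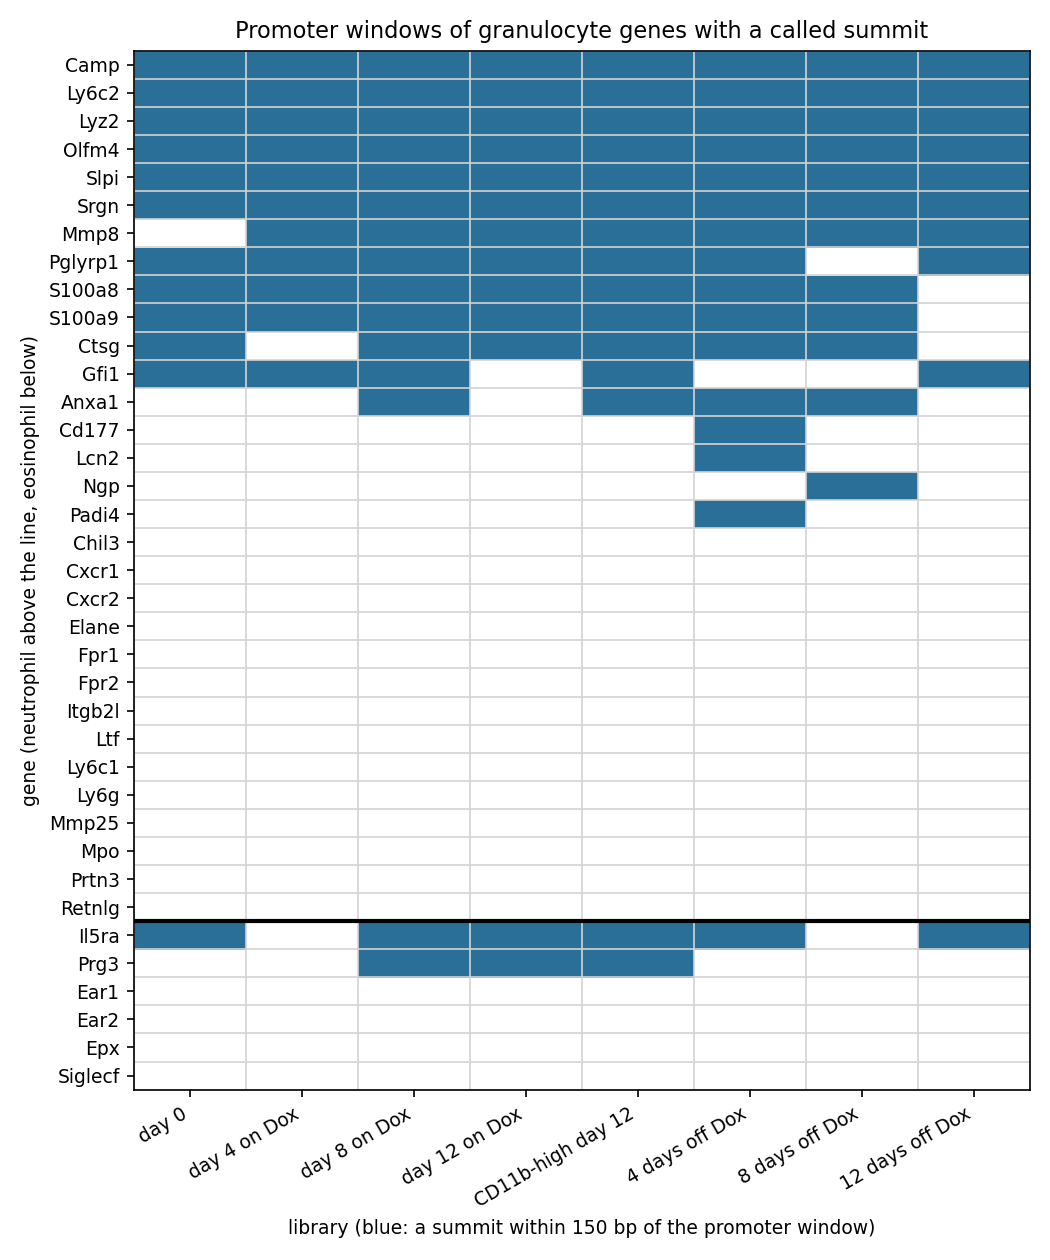
Promoter windows of the 37 granulocyte genes with an entry (rows) in the 8 libraries (columns); a blue cell is a library with a summit within 150 bp of the window and a white cell is a library without. The starts of 6 neutrophil genes were called in all 8 libraries, that of Mmp8 in all but day 0, and those of 14 neutrophil and 4 eosinophil genes in none.

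The share of granulocyte regions that were open moved with that of all regions assigned to a gene. Of the 117 neutrophil regions, 56 were open at day 0 (47.9%, 38.5 to 57.3), beside 52.1% of all regions assigned to a gene. At day 4, 8 and 12 on Dox 59, 78 and 56 were open, which made 50.4%, 66.7% and 47.9% beside 51%, 67.3% and 49.9%. In CD11b-high cells 54 were open (46.2%, 36.9 to 55.6) beside 51.3%. At 4, 8 and 12 days off 88, 73 and 45 were open, or 75.2%, 62.4% and 38.5% (29.6 to 47.9), beside 73.3%, 59.6% and 46%. Counted per 10000 open regions of the same library, neutrophil regions made up 15.8 (11.9 to 20.5) at day 0, 16.4 (12.4 to 21.3) at day 12, 15.4 (11.5 to 20) in CD11b-high cells and 14.4 (10.5 to 19.3) at 12 days off. These intervals overlapped, but the same regions were scored in each library, so overlap does not measure change. Of day 0 and day 12, 16 regions were open at day 0 only and 16 at day 12 only. Each made 13.7% (8.02 to 21.3), beside 15.7% and 13.5% of all regions assigned to a gene. A change in the number of open neutrophil regions beyond the length of the lists was not detectable at this size.

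**Figure D2:**
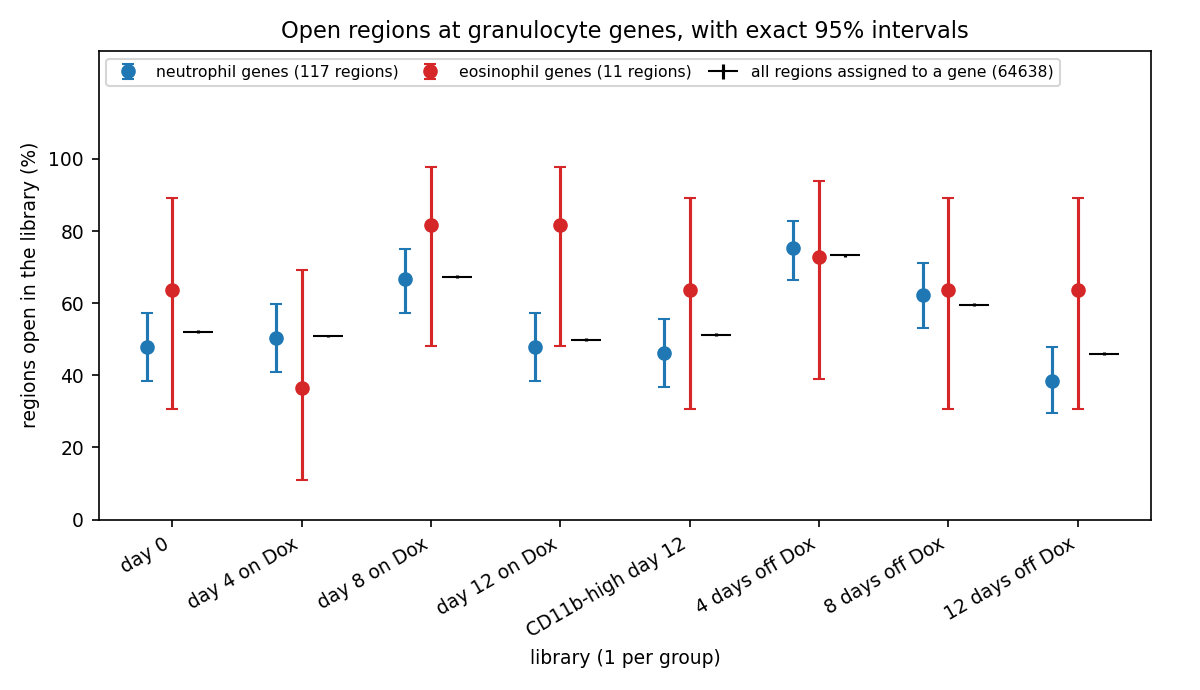
Percentage of regions open in each library (y axis) for neutrophil genes (blue), eosinophil genes (red) and all regions assigned to a gene (black), with exact 95% intervals that cover counting error only. The black mark lies inside both intervals in all 8 libraries.

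The 11 eosinophil regions had 7 open at day 0, 4 at day 4, 9 at day 8, 9 at day 12, 7 in the CD11b-high sort and 8, 7 and 7 after 4, 8 and 12 days without Dox. Of all regions assigned to a gene, 52.1%, 51%, 67.3%, 49.9%, 51.3%, 73.3%, 59.6% and 46% were open in the same order. Each of these shares lay inside the interval of the eosinophil share. Scaled to 10000 open regions this was 1.98 (0.795 to 4.07) at day 0, 2.64 (1.21 to 5.01) at day 12, 1.99 (0.801 to 4.1) in CD11b-high cells and 2.25 (0.903 to 4.63) at 12 days off. With so few regions the intervals span a wide range.

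Regions without a day 0 call that were open at each of day 4, 8 and 12 on Dox were termed gained. Regions called at day 0 and at none of those times were termed lost. Neutrophil genes held 9 gained regions of 117, or 7.69% (3.58 to 14.1), where the background was 4.86% of all regions assigned to a gene. They held 7 lost regions, or 5.98% (2.44 to 11.9), beside 5.49%. Another 33 were open at all 4 times, or 28.2% (20.3 to 37.3), beside 32.5%. Both background shares lay inside the intervals, so these counts are close to those of other genes. The gained regions belonged to 8 genes (Mpo, Ltf, Mmp8 with 2, Olfm4, Mmp9, S100a8, Serpinb1a and Fpr1) and the lost ones to 5 (Gfi1 with 3, Prtn3, Ctsg, Srgn and Padi4). No gene held both kinds. With summits scoring at least 10 alone, 5 neutrophil regions were gained and 5 lost, where the background was 3.74% and 5.01% of 36613 regions. The neutrophil regions left at that setting were not counted, so these counts are not shares of 117. Of the reported regions only that of Ltf and 1 of Mmp8 were among the gained and 0 among the lost. Without the day 4 library 15 were gained (background 9.94%), and without the day 8 library 11 were lost (background 8.79%).

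**Figure D3:**
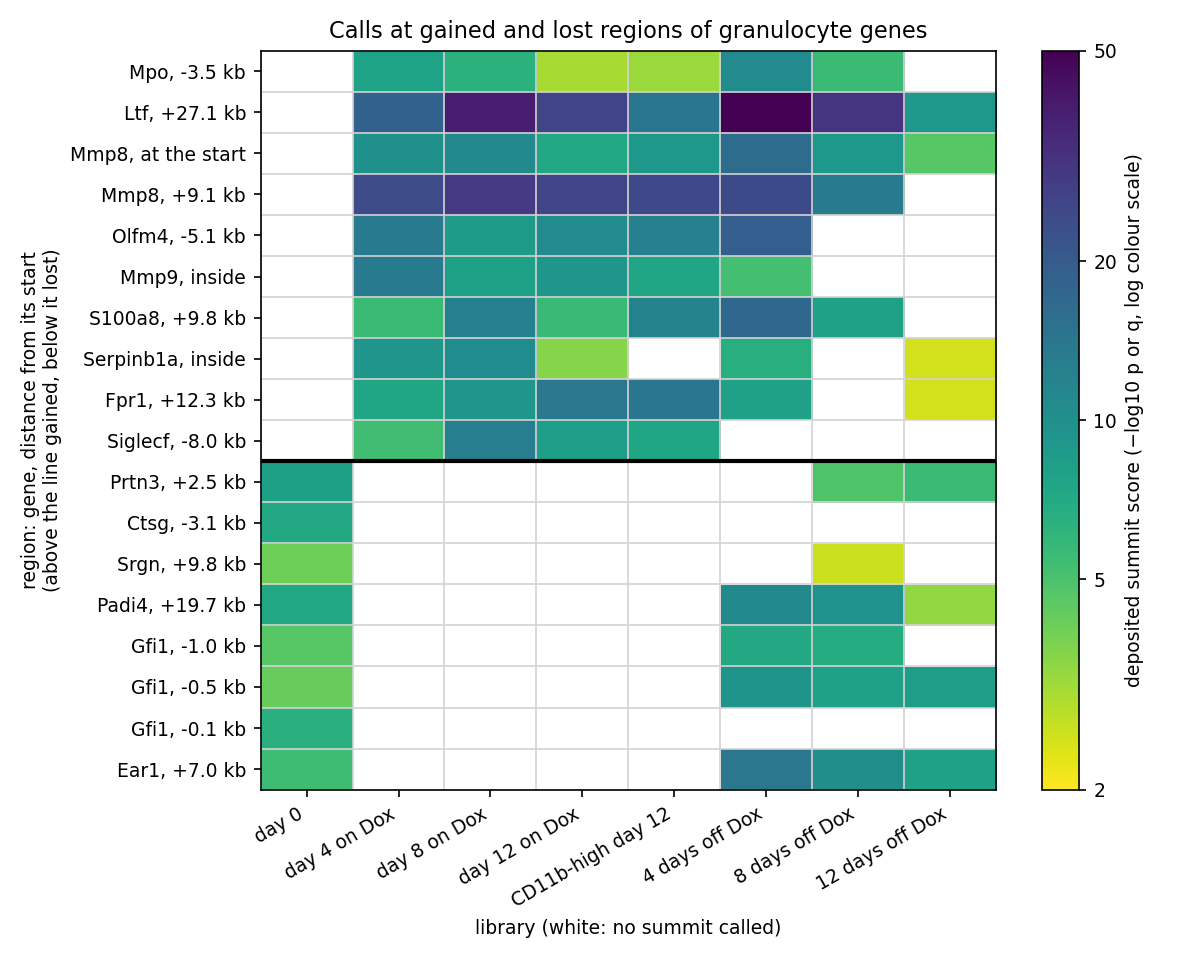
Deposited summit scores (colour, log scale) in the 8 libraries (columns) for the 10 gained regions above the line and the 8 lost regions below it, named by gene and distance from its start (positive downstream), with white for no call. The 9 gained neutrophil regions were all called at 4 days off, while Siglecf, the gained eosinophil region, was called at no time off.

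Azurophil granule genes held 1 gained and 2 lost regions among 11, or 9.09% (0.23 to 41.3) beside 4.86% and 18.2% (2.28 to 51.8) beside 5.49%. Both intervals held the background. At Mpo, which encodes myeloperoxidase, the single region (chromosome 11, 87790088 to 87790551, 3465 bp upstream of the start) was not open at day 0. It scored 7.69, 6.38 and 3.05 at day 4, 8 and 12, 3.25 in CD11b-high cells, and 10.6 and 5.56 at 4 and 8 days off, and it was not open at 12 days off. The call was thus present in the 6 libraries between the first and the last of the course. Elane, the neutrophil elastase gene, had no region of its own, and 8 regions lay within 10 kb of it that were nearer to other genes.

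At Prtn3, which encodes proteinase 3 and lies next to Elane, a region 1715 bp upstream of the start (chromosome 10, 79877779 to 79878126) was open in all 8 libraries with scores of 10.1 to 36.8. Inside the gene, the region at 79882011 to 79882339 scored 8.05 at day 0, was not open in any Dox library or at 4 days off, and scored 4.85 and 5.55 at 8 and 12 days off. Between Prtn3 and Elane, 79883685 to 79884018 scored 15.6 at day 0, 11.2 at day 4 and 4.13 at day 8. It was not open in either day 12 library or at 8 days off, and it scored 7.01 and 7.96 at 4 and 12 days off. Of these 3 regions, the upstream one kept its call throughout, while the other 2 were missing from both day 12 lists.

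At Ctsg, the cathepsin G gene, the region at the start (chromosome 14, 56102376 to 56102800) scored 8.38 at day 0 and was not open at day 4. It scored 4.94 and 4.25 at day 8 and 12, 5.27 in CD11b-high cells, and 16.3 and 4.35 at 4 and 8 days off, and was not open at 12 days off. A region 3064 bp upstream was open at day 0 only, with a score of 7.18. None of the 5 Ctsg regions was open at day 4, when 51% of all regions assigned to a gene were.

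Specific granule genes held 4 gained regions among 18, or 22.2% (6.41 to 47.6) beside 4.86%, and 0 lost (0 to 18.5) beside 5.49%. The background lay below the gained interval and inside the lost one. With summits scoring at least 10 alone, only the region of Ltf and the inner one of Mmp8 were gained again. The group had the highest count of gained regions of any, while the share was higher in the gelatinase and membrane protease group, with 1 of 3. Their open regions numbered 5 at day 0, 10, 12 and 10 at day 4, 8 and 12, 10 in CD11b-high cells, and 12, 10 and 7 off Dox after 4, 8 and 12 days. In the same order, 52.1%, 51%, 67.3%, 49.9%, 51.3%, 73.3%, 59.6% and 46% of all regions assigned to a gene were open. The share of the group was 27.8% (9.69 to 53.5) at day 0 and 55.6% (30.8 to 78.5) at day 12, and both intervals held the background. Relative to 10000 open regions of the library, day 0 had 1.41 (0.458 to 3.29) and day 12 had 2.93 (1.41 to 5.39), and these intervals overlapped. The group is small and was 1 of 10 looked at.

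Mmp8, which encodes neutrophil collagenase, had 3 regions, none of them open at day 0, when 52.1% of all regions assigned to a gene were. At the start, the region at chromosome 9, 7558227 to 7558625, scored 9.94, 10.9 and 7.32 at day 4, 8 and 12, 8.95 in CD11b-high cells, and 16, 8.96 and 4.63 at 4, 8 and 12 days off. It was open in every library after day 0. Among all genes with a promoter entry, 0.715% had a start gained on Dox and 1.06% a start lost.

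Inside Mmp8, 9094 bp downstream of the start, 7567299 to 7567747 scored 23.8, 29.2 and 25.4 at day 4, 8 and 12, 24.7 in CD11b-high cells, and 24.2 and 13.3 at 4 and 8 days off. Unlike the start, it was without a call at 12 days off. On the day 0 list, the nearest summit lay 13693 bp from the region at the start and 4571 bp from the one inside. The third region, 6295 bp upstream, was open only at day 8 (5), at day 12 (2.39) and in CD11b-high cells (5.16).

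Ltf, the lactoferrin gene, had 1 region (chromosome 9, 111046183 to 111046616), 3633 bp beyond its span and 27107 bp downstream of the start. It was not open at day 0 and scored 18.4, 38.6 and 25.6 at day 4, 8 and 12 and 14.1 in CD11b-high cells. Off Dox it scored 49.5, 30.5 and 8.95 at 4, 8 and 12 days, so it stayed called for the 12 days of withdrawal. Its score at 4 days off was the highest among the gained granulocyte regions.

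Olfm4 had 3 regions open in all 8 libraries, among them the start (chromosome 14, 80000056 to 80000404), with scores of 6.07 to 29.4. A region 5094 bp upstream (79994876 to 79995540) was not open at day 0 and scored 13.2, 8.56 and 10.6 at day 4, 8 and 12, 12.3 in the CD11b-high sort and 19.1 at 4 days off. No summit was called there at 8 and 12 days off. The farthest region of any granulocyte gene also belonged to Olfm4, at 70687 bp, and the next beyond the 100 kb limit lay at 134045 bp from the same gene.

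The other specific granule genes had no gained or lost region. The single region of Camp, at its start, scored 20.1 at day 0, 12, 11.5 and 4.57 at day 4, 8 and 12, 4.24 in CD11b-high cells and 26.9, 11.1 and 5.96 at 4, 8 and 12 days off. Pglyrp1, a peptidoglycan recognition protein of granules, had 1 region of 975 bp over its start, open in all 8 libraries at 8.43 to 33.2. By the narrower promoter window its start was open in 7 libraries, without a call at 8 days off. Lcn2 (lipocalin 2), Ngp (neutrophilic granule protein) and Chil3 (chitinase-like 3) had 2 regions each, and each of these 6 was open in 1 library only. The calls were 4 at 4 days off or 8 days off and 2 at day 8, and their scores ran from 1.67 to 7.87, below the median of each list.

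The granule matrix, lysozyme, gelatinase and membrane protease genes had 1 gained and 1 lost region. Srgn had 9 regions, of which 4 kept their call in each of the 8 libraries. A site within its span (chromosome 10, 62517480 to 62517859) was lost, with low scores of 4.05 at day 0 and 2.6 at 8 days off. The start of Lyz2 scored 9.37 to 32.5 in the 8 libraries. Mmp25, a membrane-anchored protease, had 1 region inside the gene, open in all 8 at 6.69 to 26.2.

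Mmp9, the gelatinase B gene, had a gained region inside the gene (chromosome 2, 164942911 to 164943257). It was not open at day 0 and scored 13.1, 7.95 and 9.19 at day 4, 8 and 12, 7.48 in the CD11b-high sort and 5.21 at 4 days off. The call was missing at 8 and 12 days off. The other Mmp9 region, 164953199 to 164953592, was open in all libraries except that of 12 days off, at 3.17 to 15.7.

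Among cytosolic and secreted maturation proteins, S100a8 and S100a9, which form the calcium-binding complex calprotectin, shared a pattern at their starts. S100a8 scored 4.5 at day 0, 12.1, 7.74 and 4.6 at day 4, 8 and 12, 6.08 in CD11b-high cells and 13.3 and 8.12 at 4 and 8 days off. S100a9 scored 7.56, 10.3, 21.7, 8.65, 8.25, 20.3 and 14.5 in the same order. Neither start was called at 12 days off. That pattern, open in every library but the last, held for 5 of 117 neutrophil regions (4.27%, 1.4 to 9.69) beside 1.68% of the regions assigned to a gene, and it was singled out after the values were seen.

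A gained region 9784 bp downstream of the S100a8 start (chromosome 3, 90678636 to 90679075) lies between the 2 genes. It scored 5.57, 12.2 and 5.69 at day 4, 8 and 12, 11.8 in CD11b-high cells and 16.9 and 7.97 at 4 and 8 days off, and was not open at day 0 or 12 days off. All 3 regions assigned to S100a8 were without a call at 12 days off, the shortest list, where 46% of all regions assigned to a gene were open. A region 14509 bp upstream of S100a9 was open in all 8, at 13.4 to 37.6.

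Retnlg, which encodes a resistin-like protein of mature neutrophils, had 2 regions, 3782 and 7443 bp upstream of its start on chromosome 16. The nearer (48868651 to 48869001) scored 9.62 at day 8, 4.45 at day 12 and 9.78 in CD11b-high cells. The farther (48864925 to 48865405) scored 7.43, 6.82 and 5.85 in the same libraries. Both were open in those 3 libraries and in no other. The upstream Mmp8 region and the Prg3 start had the same calls, so that 3 neutrophil regions (2.56%, 0.532 to 7.31) and 1 eosinophil region shared the pattern, beside 1.03% of the regions assigned to a gene. It was singled out after the values were seen.

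Padi4, the enzyme that citrullinates histones in neutrophils, had 5 regions. The region inside the gene at chromosome 4, 140754221 to 140754727, scored 7.29 at day 0, was not open in the 4 Dox libraries, and scored 10.8, 9.65 and 3.38 at 4, 8 and 12 days off. It was open again at every time off Dox. Anxa1, which encodes the anti-inflammatory protein annexin A1, had 11 regions, the most of any granulocyte gene, with 0 gained, 0 lost and 4 open in a single library. Its start was open at day 8, in CD11b-high cells and at 4 and 8 days off, with scores of 4.27 to 8.36.

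Of the protease inhibitors, Slpi had 2 regions open in all 8 libraries, among them the start at 11.1 to 32.1. Serpinb1a, an inhibitor of neutrophil serine proteases, had 6 regions and 1 gained (chromosome 13, 32850835 to 32851402). It scored 9.35, 10.4 and 3.57 at day 4, 8 and 12, was not open in CD11b-high cells or at 8 days off, and scored 6.55 and 2.48 at 4 and 12 days off. It was the only gained neutrophil region not called in CD11b-high cells.

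Receptors and surface proteins held 1 gained and 0 lost regions among 32, or 3.12% (0.0791 to 16.2) beside 4.86% and 0% (0 to 10.9) beside 5.49%, both near the background. At Fpr1, a receptor for bacterial formyl peptides, the single region (chromosome 17, 17871302 to 17872054, 12261 bp downstream of the start) was not open at day 0. It scored 7.57, 9.21 and 13.7 at day 4, 8 and 12, 14.1 in CD11b-high cells, 7.92 at 4 days off and 2.48 at 12 days off, with no call at 8 days off. Fpr2, its neighbour, had 3 regions with scores of 4.52 to 6.93, none open at day 0 or at day 12 in total cells. In these libraries 52.1% and 49.9% of all regions assigned to a gene were open.

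The chemokine receptors of neutrophils had 2 regions open in 5 or more libraries. Cxcr2 had 5 regions, 4 of them open in a single library at 2.59 to 5.87, and 1 open in all but the library of 12 days off. Cxcr1 had 3 regions, none open at day 4 or at 12 days off, when 51% and 46% of all regions assigned to a gene were. Cd177, a neutrophil surface glycoprotein, had 2 regions. Its start was open at 4 days off only, with a score of 2.42. The other was open in all libraries but that of CD11b-high cells, at 5.03 to 18.7. Itgb2l, an integrin beta subunit-like gene that overlaps Igsf5 at its regions, had 1 region open in all but the library of 12 days off, at 4.62 to 32.2.

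The Ly6 genes on chromosome 15 differed from each other. Ly6g, the neutrophil surface marker, had 3 regions, none open at day 0, in CD11b-high cells or at 12 days off. All 3 were open at 4 and 8 days off. Of all regions assigned to a gene, 52.1%, 51.3% and 46% were open in the former libraries and 73.3% and 59.6% in the latter. The start of Ly6c2, a monocyte and granulocyte surface antigen, was open in all 8 at 4.04 to 24.5. The highest scores of any granulocyte region belonged to 75086692 to 75087015, which lay 21308 bp outside the Ly6c2 span and had Ly6c2 as its nearest gene. It scored between 87.7 at day 12 and 135 at day 4. Of the 8 Ly6c2 regions 7 were open at day 0 and 4 at day 12. The related Ly6c1 had 5 regions, 4 open at day 0 and 2 at day 12. Of all regions assigned to a gene 52.1% were open at day 0 and 49.9% at day 12. The regions per gene are few, and calls at these close copies are uncertain.

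Gfi1, a zinc-finger repressor needed for neutrophil development, held the most lost regions, 3 of 9, or 33.3% (7.49 to 70.1), with the background of 5.49% below that interval. The 3 lie within 3 kb of each other and are not independent. The region over 1 of its 2 annotated starts (chromosome 5, 107725328 to 107726061) was open in all 8 libraries at 7.16 to 25.8. A region 25240 bp downstream of a start was open in all 8 at 17.7 to 57.5. Of the lost regions, 107724333 to 107724633 was open at day 0 only (6.44). The region at 107724651 to 107724972 scored 4.22 at day 0 and 9.45, 7.93 and 8.21 off Dox, and that at 107726667 to 107726973 scored 4.59 at day 0, 7.14 at 4 days off and 6.82 at 8 days off. Summits of the day 4, 8 or 12 lists lay 183, 182 and 792 bp away from the 3, so a summit was still called within 1 kb of each. By the narrower promoter window, at least 1 of the 2 starts of Gfi1 was open in 5 libraries.

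Eosinophil genes held 1 gained and 1 lost region among 11, each 9.09% (0.23 to 41.3), which holds the background of 4.86% and 5.49%. At Siglecf, the eosinophil surface lectin, the region 7956 bp upstream of the start (chromosome 7, 43343205 to 43343565) scored 5.4, 12.6 and 8.28 at day 4, 8 and 12 and 7.48 in CD11b-high cells. It was not open at day 0 or at any time off Dox. A region 1972 bp inside Siglecf (43353145 to 43353481) scored 2.75 at day 0, 17, 22 and 21.4 at day 4, 8 and 12, 19.4 in CD11b-high cells and 27 and 8.59 at 4 and 8 days off, with no call at 12 days off. The Siglecf region 1517 bp upstream was open in all 8, at 15 to 35.

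At Ear1, an eosinophil-associated ribonuclease, the single region (chromosome 14, 43812505 to 43812826) scored 5.46 at day 0, was not open in the 4 Dox libraries, and scored 14, 10.2 and 7.92 at 4, 8 and 12 days off. Its relative Ear2 had 1 region, open only at day 12 (5.69) and in CD11b-high cells (3.25). Each of these calls rests on 1 region in a pair of close copies.

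Prg3, which encodes a relative of major basic protein, had 1 region, at its start (chromosome 2, 84988019 to 84988330). It scored 10.8 at day 8, 6.82 at day 12 and 7.48 in CD11b-high cells. No other library called it. Prg2, the major basic protein gene beside it, had no region, and 1 region lay within 10 kb that was nearer to another gene. The Epx (eosinophil peroxidase) region 6402 bp upstream was open in 6 libraries at 5.66 to 22.5, but not at day 4 or in CD11b-high cells. The start of Il5ra, the IL-5 receptor alpha chain, was open in 6 libraries at 3.29 to 14, but not at day 4 or 8 days off. At day 4 none of the 4 regions of eosinophil granule genes was open (0%, 0 to 60.2), beside 51% of all regions assigned to a gene, which lay inside that interval.

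After withdrawal of Dox some of the gained calls were missing and others were present. Of the 9 gained neutrophil regions, 9 were open at 4 days off, 5 at 8 days and 4 at 12 days (44.4%, 13.7 to 78.8). Over all gained regions assigned to a gene 75.6%, 50% and 26.9% were open at these times. Those open at all 3 times off were the start of Mmp8 and the region of Ltf. Serpinb1a and Fpr1 were open at 12 but not at 8 days off, and Olfm4 and Mmp9 were open at neither. Of the 7 lost regions, 3, 5 and 3 were open at 4, 8 and 12 days off, beside 48.7%, 45% and 25.5% of all lost regions. Padi4 and 1 Gfi1 region were open at all 3 times, and Ctsg and another Gfi1 region at none. The gained counts are small, and the background shares at 4, 8 and 12 days off lay inside their intervals.

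**Figure D4:**
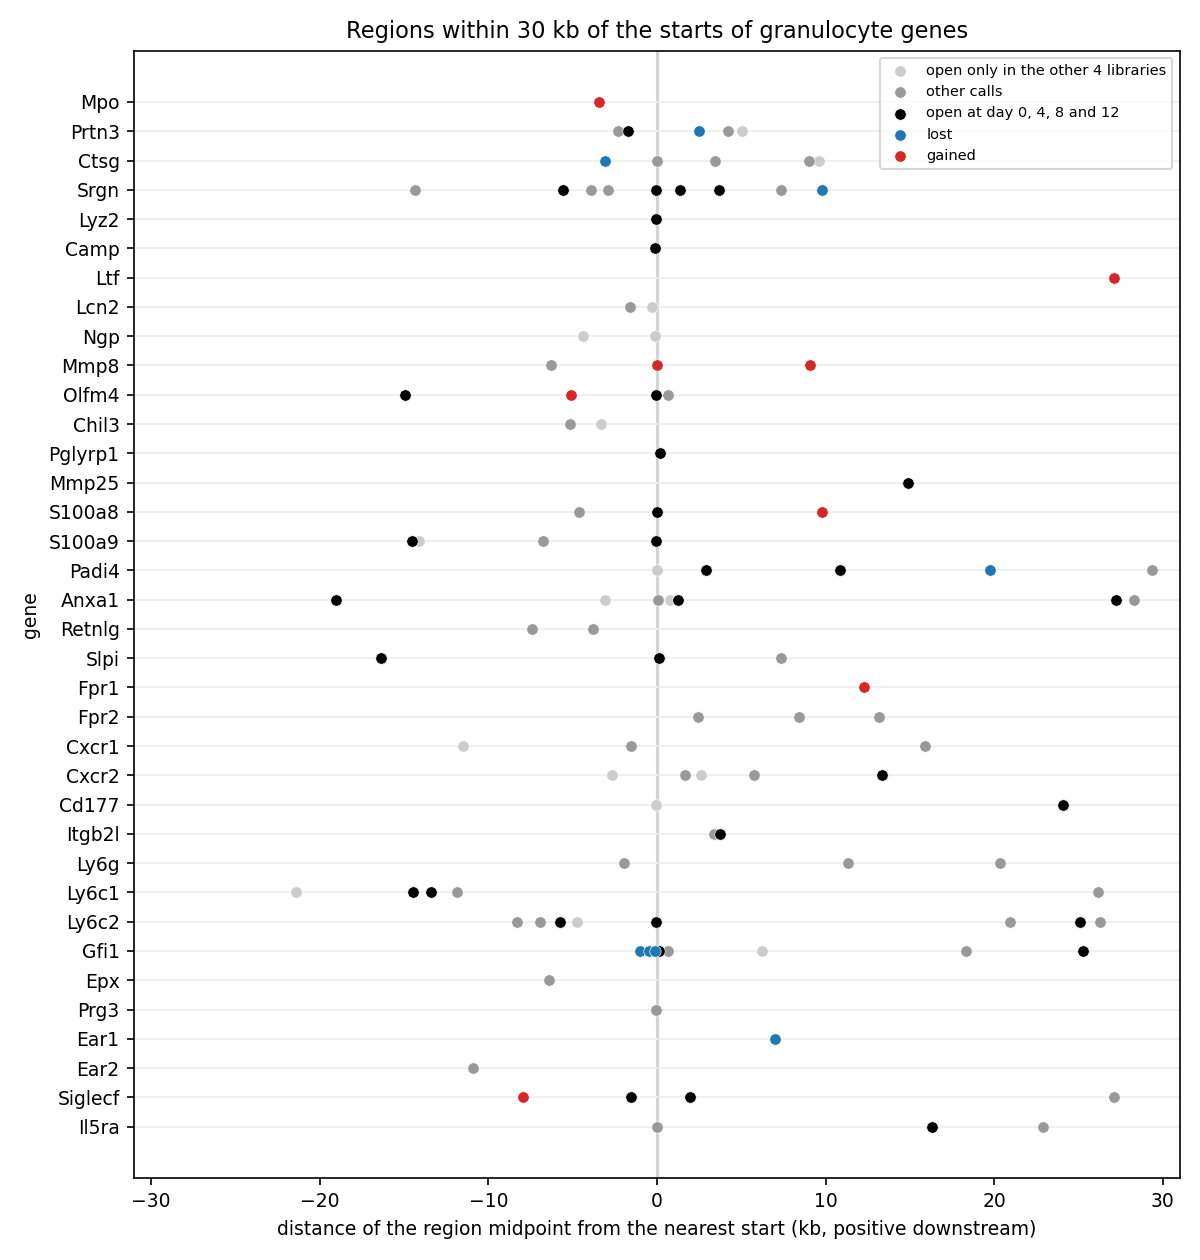
Distance of each region's midpoint from the nearest start of its gene (x axis, kb, positive downstream) for genes with a promoter entry (rows), coloured by the calls at day 0, 4, 8 and 12; 6 regions beyond 30 kb are not drawn. The only gained region within 1 kb of a start is that of Mmp8, while 10 regions open at all 4 times and 2 lost regions of Gfi1 lie there.

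Neutrophil regions lay outside genes more often than assigned regions in general. Of the neutrophil regions, 31.6% (23.3 to 40.9) had their midpoint inside the gene, beside 58.7% of all regions assigned to a gene, and 21.4% (14.3 to 29.9) lay within 1 kb of a gene end beside 22.8%. Many granule genes are short, and gene length was not matched in this comparison. Regions open in all 8 libraries made up 20.5% (13.6 to 29) beside 27.9%, and regions open in 1 library 24.8% (17.3 to 33.6) beside 23.1%.

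The CD11b-high sort, CD11b being an integrin of mature myeloid cells, was set beside total cells of the same day. Of the neutrophil regions, 45 were open in both day 12 libraries, 11 in total cells only and 9 in CD11b-high cells only. The latter shares, 9.4% (4.79 to 16.2) and 7.69% (3.58 to 14.1), were near the 9.15% and 10.5% of regions assigned to a gene. Regions in CD11b-high cells only included the start of Anxa1 (6.58) and a Ctsg region 3441 bp downstream of its start (6.36). Serpinb1a had 3 regions open in total cells only and 1 in CD11b-high cells only. Of the 11 eosinophil regions 7 were open in both libraries and 2 in total cells only, those of Epx and the Il5ra region 22877 bp downstream of the start. The only region of a granulocyte gene called in CD11b-high cells and in no other library belonged to Ly6c1 (chromosome 15, 75070072 to 75070372), with a score of 5.27. Of the 9 gained neutrophil regions 8 were open in the sort (88.9%), beside 83.7% of all gained regions, and of the 7 lost ones 0 were, beside 7.13%.

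Other genes of granulocyte development were counted the same way, in lists chosen with earlier results of these data known. The 12 transcription factor genes held 15 gained and 5 lost regions among 128, or 11.7% (6.71 to 18.6) and 3.91% (1.28 to 8.88), beside the 4.86% gained and 5.49% lost of regions assigned to a gene. They included the ETS repressor Etv6 with 5 gained and 1 lost, Runx1 with 1 gained and 2 lost, Cebpb with 2 gained and 0 lost, and Irf8 with 1 gained and 1 lost. The 18 other neutrophil maturation genes held 8 gained and 1 lost among 82, or 9.76% (4.31 to 18.3) and 1.22% (0.0309 to 6.61), led by the integrin gene Itgb2 with 3 gained and 1 lost. The complement receptor C5ar1 and the C-type lectins Clec4d and Clec4e had 1 gained and 0 lost each. The 6 oxidase genes held 3 gained and 3 lost among 30, each 10.0% (2.11 to 26.5), with 1 of each at Cyba and at Ncf4, 1 lost at Ncf1 and 1 gained at Rac2. Among 76 regions of the 12 other eosinophil genes, 6 were gained and 5 lost, or 7.89% (2.95 to 16.4) and 6.58% (2.17 to 14.7). The intervals of the last 3 lists held both background shares. The lipoxygenase gene Alox15 accounted for 3 of the gained ones, Trib1 for 1 gained and 1 lost, the chemokine receptor gene Ccr3 for 1 gained and the cytokine receptor gene Csf2rb for 1 lost.

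Markers of other blood cells were counted beside these. The 14 monocyte and macrophage genes had 13 open regions at day 0 and 19 at day 12, among 35, where 52.1% and 49.9% of regions assigned to a gene were open. Of the 35, 6 were gained, or 17.1% (6.56 to 33.6) beside 4.86%, and 2 lost, or 5.71% (0.7 to 19.2) beside 5.49%. The background lay below the gained interval and inside the lost one. The 9 mast cell and basophil genes had 9 and 9, and 1 gained and 0 lost among 26. Erythroid genes had 11 and 6 with 0 gained and 5 lost among 15 (33.3% lost, 11.8 to 61.6, with the background of 5.49% below it). B cell genes had 9 and 4 with 0 gained and 3 lost among 12, and T cell genes 6 and 5 with 0 gained and 0 lost among 7. In CD11b-high cells these lists had 20, 16, 7, 2 and 5 open regions, from monocyte to T cell genes. There 51.3% of regions assigned to a gene were open. No region had C1qb, C1qc, Fcer1a, Alas2, Cd79a, Cd79b, Cd4 or Cd8a as its nearest gene, which leaves out nearby regions assigned to other genes. No start of the 4 B cell genes with a promoter entry was called in any library. The part of other cell types in the granulocyte calls was not tested.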

How the data were processed

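ATAC-seq, in which a transposase cuts open DNA, was measured in 8 libraries, 1 per group. Per the submitters' processing notes the authors used MACS2 and Picard 2.14.0 with build mm10; the names of the lists record removal of mitochondrial reads, a duplicate step and a read shift. No source used here gives the aligner, the MACS2 version or the depth. The deposited lists hold summits with a −log10 p-value or q-value, read as such because the smallest lay between 1.3 and 1.39. Summits of the 19 autosomes, X and Y got 150 bp on each side, were merged over the libraries and were assigned by midpoint to the nearest protein-coding span within 100 kb in RefSeq GRCm38.p6 (ties to the nearer gene end), with Python 3.11.15, pandas 2.3.3, numpy 2.4.6 and scipy 1.17.1. The merging and assignment were tested on simulated data. All 40 genes matched. Members and lists were chosen with earlier results of these data known. Every member was to be named, with scores for gained and lost regions, those called only in CD11b-high cells and those at starts, and up to 4 companion genes per list. Alternatives were a score minimum, equal list lengths, other widths and gene distances, and other combinations of libraries. Genome sequence beyond the RefSeq promoters was not used here.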

Additional observations from a re-analysis of the deposited data

Results flagged for a closer look

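Summits on contigs other than the 19 autosomes, X and Y were not used in any comparison of granulocyte genes. Each list held some, from 85 in CD11b-high cells to 121 at day 4 on Dox, above the limit that a count of 0 allows.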

How the results depend on the processing

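Of 100 values recomputed, 82 stayed within 1.5 times the reported count or within the reported interval. At a score of at least 10 the neutrophil genes held 5 gained and 5 lost regions (background 3.74% and 5.01% of 36613 regions), out of a neutrophil total that was not counted. Only 2 of the 9 reported gained regions (Ltf and the inner Mmp8 region) and 0 of the 7 lost were among them. Eosinophil genes held 0 lost at that setting, and the reported gained Siglecf region was not called again. Per 10000 open regions that setting gave 11.4 at day 12 and 10 at 12 days off for neutrophil genes, and 0.492 at day 0 and 1.2 at day 12 for eosinophil genes. With day 12 alone against day 0, neutrophil genes held 16 gained and 16 lost (background 13.5% and 15.7%) and eosinophil genes 4 and 2. Without regions that had a summit within 1 kb, 4 neutrophil regions were lost, none of them at Gfi1. With lists of equal length, with every region within 10 kb of a member, and with 12 days off in place of day 0, eosinophil genes held 2 gained. The setting with 12 days off, and those without a library, were chosen after seeing the data. Without the day 4 library, neutrophil genes held 15 gained (background 9.94%) and eosinophil genes 3. Without the day 8 library, neutrophil genes held 11 lost (background 8.79%) and eosinophil genes 2. The causes were not tested. With lists of equal length 7 of the 9 gained and 4 of the 7 lost neutrophil regions were called again, and with 12 days off in place of day 0, 5 and 3 were. No paired analysis was possible because each group had 1 library. Low scores and unknown depth limit single calls.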
